A study of Arabidopsis thaliana with 14 samples.

Results

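The 9 genes described here encode 3-ketoacyl-CoA synthases of Arabidopsis thaliana, KCS1, KCS2, KCS4, KCS5, KCS6, KCS9, KCS10, KCS17 and KCS20. They were picked by gene identifier, with the group means of this experiment already known, out of 24350 genes listed in the tables and out of 21 KCS genes in the family. The levels chose the genes, so every level and ratio of these 9 genes is given as a description, without a test.

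A KCS enzyme carries out the first step of each round of very-long-chain fatty acid elongation in the endoplasmic reticulum, joining an acyl-CoA to malonyl-CoA. A ketoacyl reductase, a hydroxyacyl dehydratase and an enoyl reductase complete the round, and the KCS sets which chain lengths are made. The products go into cuticular waxes, suberin, sphingolipids, membrane lipids and seed oils. In the hypocotyl the epidermis coats itself with cutin and with wax made from such acyl chains.

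The experiment asked whether hydrogen peroxide affects gene expression downstream of BZR1, a transcription factor of the brassinosteroid pathway. Wild-type Col-0 seedlings and seedlings of bzr1-1D, a gain-of-function allele of BZR1 in the same ecotype, grew for 6 days in the dark, and every group, controls included, was on 2 µM PPZ, an inhibitor of brassinosteroid synthesis. The mock medium held PPZ alone, the DPI medium added 1 µM DPI, an inhibitor of the NADPH oxidases that make superoxide and thereby H2O2, and the third medium held 1 µM DPI and 0.3 mM H2O2. By the labels, each genotype has 3 samples on mock medium and 3 on DPI medium, and bzr1-1D has 2 more on DPI plus H2O2, which makes 14 samples in 5 groups. No Col-0 group with H2O2 entered the comparisons.

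The tables give the authors' mean of each group and no value per sample. The unit is not named and was taken as FPKM, which counts mapped fragments per length of transcript and per total of mapped fragments. No SD, n or test can therefore stand beside a value, neighbours in an order of levels cannot be compared with the replicate spread, and the depth per sample is unknown. By their decimals, the means of both Col-0 groups and of bzr1-1D with DPI average 3 libraries and those of the remaining bzr1-1D groups 2, so 1 of the 3 labelled bzr1-1D mock samples is not in its mean. The column headers abbreviate the mutant as ERD, which the table titles pair with bzr1-1D. The allele is a point mutation, so the BZR1 transcript level does not check the genotype.

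The labels call the tissue hypocotyl of seedlings. Of 6 genes taken as root markers, the Casparian strip genes CASP1, CASP2 and ESB1 were the main contributors to the sum. The root hair genes EXP7 and COBL9 were at most 3.68 and 1.74 FPKM. The summed level of the root markers was 335 FPKM in Col-0 on mock medium and 189 with DPI, and in bzr1-1D at 672 on mock medium, 391 with DPI and 556 with DPI plus H2O2. The 4 epidermis markers summed to 499, 757, 822, 1073 and 849 FPKM in the same order, the 4 green tissue markers to 30417, 67882, 8870, 29641 and 14087, and the 3 seed markers to 250, 21.7, 234, 302 and 344. None of these markers was at the lowest listed value in any group. Members of a list did not all go with its sum. On mock medium CRA1 was lower in bzr1-1D than in Col-0, at 56.6 against 156 FPKM, while CRU3 and OLEO1 were higher. LHB1B2 was higher, at 613 against 374 FPKM, while CAB1, RBCS1A and LHCB3 were lower. In such bulk material, fewer cells of a type and less RNA per cell cannot be told apart.

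The genes lie apart from each other on 4 chromosomes. In the TAIR10.1 annotation KCS1 (AT1G01120) is at chr1:57164-59215 on the minus strand, KCS2 (AT1G04220) at chr1:1119699-1122786 on the minus strand, and KCS4 (AT1G19440) at chr1:6728747-6730931 on the plus strand. KCS5 (AT1G25450) is at chr1:8938387-8940613 and KCS6 (AT1G68530) at chr1:25712414-25715024, both on the minus strand. KCS9 (AT2G16280) is at chr2:7050799-7052951 on the plus strand and KCS10 (AT2G26250) at chr2:11170416-11173278 on the minus strand. KCS17 (AT4G34510) at chr4:16491692-16493762 and KCS20 (AT5G43760) at chr5:17585523-17588733 are on the plus strand. The coding sequence is in 1 exon in KCS1, KCS4, KCS9 and KCS17, in 2 exons in KCS2, KCS5, KCS6 and KCS20, and in 3 exons in KCS10. KCS17 ends 442 bases before KCS18 (FAE1), the seed oil synthase, which is not among the 9 genes.

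All 9 proteins share the catalytic cysteine of the condensing enzyme family. The 33 bases of coding sequence around its codon are shown because they hold this residue. The cysteine codon is in capitals, the sequence runs 5′ to 3′ on the coding strand of TAIR10.1, and closely related genes are placed next to each other.
KCS1: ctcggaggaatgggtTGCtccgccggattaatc
KCS2: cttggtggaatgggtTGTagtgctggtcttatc
KCS20: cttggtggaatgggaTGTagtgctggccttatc
KCS5: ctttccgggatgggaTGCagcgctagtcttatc
KCS6: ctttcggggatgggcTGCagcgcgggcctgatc
KCS4: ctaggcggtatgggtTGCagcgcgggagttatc
KCS9: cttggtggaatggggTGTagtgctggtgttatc
KCS17: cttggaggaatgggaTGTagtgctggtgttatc
KCS10: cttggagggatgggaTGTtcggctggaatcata
The codon was TGC in KCS1, KCS4, KCS5 and KCS6 and TGT in KCS2, KCS9, KCS10, KCS17 and KCS20. Over the whole coding sequence the 36 pairs among the 9 genes were 62.4% to 84.1% identical, with a median of 65.7%. The closest pairs were KCS2 with KCS20 at 84.1%, KCS5 with KCS6 at 81.3% and KCS9 with KCS17 at 79.2%. KCS2 and KCS20 shared 4 stretches of 50 bases, the only pair of the 9 genes that shared any, and how the reads of such stretches were assigned is not given in the sources used here.

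The levels spanned a wide range. KCS6 (CER6), the main elongase of cuticular wax, was listed at 158 FPKM in Col-0 on mock medium and 172 with DPI, and in bzr1-1D at 343 on mock medium, 309 with DPI and 382 with DPI plus H2O2. KCS10 (FIDDLEHEAD), which is needed to keep the epidermis of adjoining organs from fusing, was listed at 115, 119, 171, 215 and 262 FPKM in the same order. These were the highest of the 9 genes by their mean over the groups, and both were lowest in the Col-0 groups and highest with H2O2. KCS20, which acts together with KCS2 in root suberin and wax, was listed at 90.2 FPKM in Col-0 on mock medium and 90.7 with DPI, and in bzr1-1D at 126 both on mock medium and with DPI and at 145 with DPI plus H2O2. KCS1, another enzyme of wax synthesis, was listed at 37.6 FPKM in Col-0 on mock medium and 45.8 with DPI, and in bzr1-1D at 156 on mock medium, 102 with DPI and 137 with DPI plus H2O2. KCS1 alone of the 8 genes above 1 FPKM had its highest mean in bzr1-1D mock.

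KCS2 (DAISY) was listed at 21.4 FPKM in Col-0 on mock medium and 24.8 with DPI, and in bzr1-1D at 63.6 on mock medium, 61.6 with DPI and 83.8 with DPI plus H2O2. KCS5 (CER60), the closest relative of KCS6, was listed at 15.3, 17.2, 29.4, 32.5 and 42.4 FPKM in the same order. Both thus stood in 2 tiers, with Col-0 low and bzr1-1D high on every medium. Every bzr1-1D mean of KCS1, KCS6, KCS9, KCS10 and KCS20 was also above both Col-0 means, for KCS9 at the closest 40.4 against 36.2 FPKM. How many of all genes have this order was not counted. The genes were chosen with these means known, so nothing is read from it. KCS9, which has a part in waxes, suberin and sphingolipids, was listed at 31.9 and 36.2 FPKM in Col-0 without and with DPI, and in bzr1-1D at 43.5 on mock medium, 45.0 with DPI and 40.4 with DPI plus H2O2. KCS4 was listed at 14.0 FPKM in Col-0 on mock medium and 16.5 with DPI, and in bzr1-1D at 16.3 on mock medium, 21.8 with DPI and 20.8 with DPI plus H2O2. KCS4 was the only one of these 8 genes whose bzr1-1D mock mean was below its Col-0 DPI mean. KCS17 was listed at 0.107, 0.123, 0.28, 0.117 and 0.315 FPKM, below the minimum of 1 FPKM in every group, so 8 of the 9 genes entered the ratios.

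**Figure D1:**
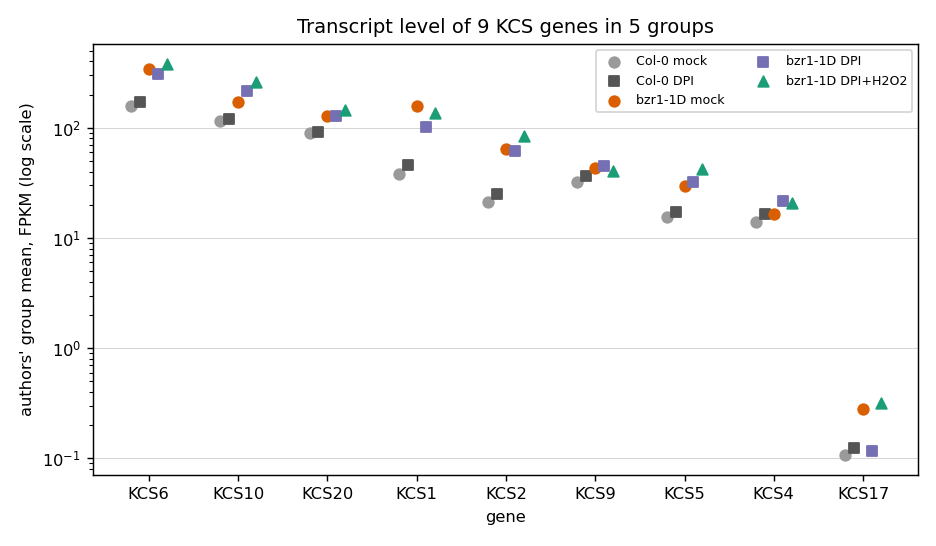
Authors' group mean of each of the 9 KCS genes in FPKM on a log axis, with 1 point per group and the genes ordered by their mean over the 5 groups; there are no error bars because the files hold no values per sample. The bzr1-1D points of KCS1, KCS2, KCS5, KCS6, KCS9, KCS10 and KCS20 stand above both Col-0 points, an order not counted over all genes. KCS17 stays between 0.107 and 0.315 FPKM.

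Summed over the 9 genes, the level was 484 FPKM in Col-0 on mock medium and 523 with DPI, and in bzr1-1D at 949 on mock medium, 914 with DPI and 1115 with DPI plus H2O2. Relative to Col-0 mock the sums were 1.08, 1.96, 1.89 and 2.30 times as high. KCS6 and KCS10 together held between 54.1% and 57.8% of the sum in every group. KCS1 held 7.78% of the sum in Col-0 mock and 16.5% in bzr1-1D mock, whereas KCS10 held 23.9% and 18.0% and KCS20 18.6% and 13.3%. The 9 genes held 71.5% of the summed level of the whole KCS family in Col-0 mock and 83.5% in bzr1-1D mock.

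**Figure D2:**
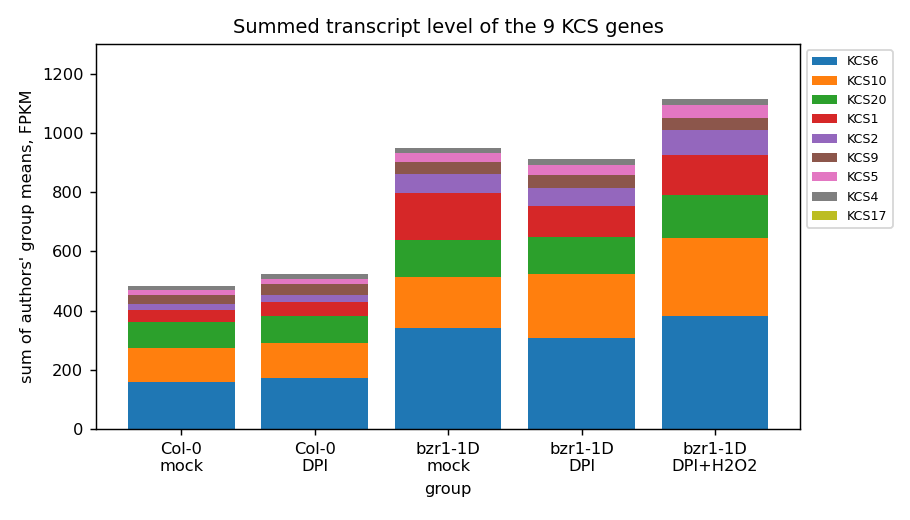
Stacked bars of the authors' group means in FPKM for the 9 KCS genes, 1 bar per group and 1 colour per gene. The bars reach 484 and 523 FPKM in Col-0 and between 914 and 1115 FPKM in bzr1-1D.

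The first comparison asked how the genes differ between bzr1-1D and Col-0 on the mock medium. KCS1 was 4.15-fold higher in bzr1-1D, KCS2 2.97-fold, KCS6 2.17-fold and KCS5 1.92-fold. KCS10 was 1.48-fold higher, KCS20 1.40-fold, KCS9 1.36-fold and KCS4 1.17-fold, all under the 1.5-fold threshold at which a difference between the authors' means was counted. Thus 4 of 8 genes were past the fold upwards and 0 downwards, where 26.0% of all genes averaging 1 FPKM or more were past it upwards and 15.4% downwards. Among genes averaging at least 10 FPKM, as these 8 do, the shares were 22.7% and 15.2%. The median log2 ratio of the 8 genes was 0.75 and that of all genes 0.14. Since the genes were chosen with these means known, nothing is read from that difference. In the same comparison the summed root markers were 2.01-fold and the summed epidermis markers 1.65-fold higher in bzr1-1D. Within the epidermis list PDF1 was higher and LTP1 lower, at log2 ratios of 1.29 and -1.34, and ATML1 and PDF2 were at 0.32 and 0.18. The part of tissue make-up in the KCS ratios was not tested.

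On the DPI medium the same comparison of genotypes gave 5 of 8 genes past the fold upwards and 0 downwards, beside 26.1% and 8.94% of all genes. From 10 FPKM the shares were 19.1% and 9.36%. KCS2 was 2.49-fold higher in bzr1-1D, KCS1 2.23-fold, KCS5 1.88-fold, KCS10 1.80-fold and KCS6 1.79-fold. KCS20 was 1.39-fold higher, KCS4 1.32-fold and KCS9 1.25-fold. KCS2 rather than KCS1 led the order here, and KCS10 had crossed the threshold. At a 2-fold threshold only KCS1 and KCS2 remained of the 5. The median log2 ratio was 0.85 for the 8 genes and 0.20 for all genes, and the summed root markers were 2.07-fold higher in bzr1-1D. That sum was carried by CASP1, CASP2 and ESB1, past the fold upwards at log2 ratios of 1.48, 2.22 and 1.04. The root hair markers EXP7 and COBL9 were past it downwards at -4.35 and -1.48, and the endodermis marker SCR was at 0.14. Both root hair markers were at low levels, EXP7 at 3.68 FPKM in Col-0 and 0.18 in bzr1-1D, and COBL9 at 1.74 and 0.627.

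DPI in Col-0 left each of the 8 genes within 1.5-fold of mock. The largest log2 ratio was 0.28, of KCS1, and the smallest 0.01, of KCS20. None of the 8 was past the fold in either direction, beside 4.01% of all genes upwards and 25.2% downwards. Among genes averaging at least 10 FPKM the shares were 3.35% and 15.5%, and their median log2 ratio was -0.17. All 8 ratios were above 0, where the upper quartile of all genes stood at 0.01 and their median at -0.28. The 8 other KCS genes averaging 1 FPKM or more were all above that median too, 2 of them below 0. Centring on the median gene raises each log2 ratio by 0.28, and still put none of the 8 genes described here past the fold.

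DPI in bzr1-1D went with a lower level of KCS1, which was 1.53-fold lower than in bzr1-1D mock at a log2 ratio of -0.61. It was the only one of the 8 genes past the fold, beside 29.6% of all genes downwards and 15.0% upwards. At 10 FPKM or more the shares were 26.7% and 15.5%. KCS6 and KCS2 were at -0.15 and -0.05, KCS20 at 0.00, KCS9 at 0.05, KCS5 at 0.14, KCS10 at 0.33 and KCS4 at 0.42. The median gene stood at -0.24. Relative to it KCS1 was at -0.37, no longer past the fold, KCS4 was at 0.66 and past it upwards, and KCS2 and KCS6 turned positive, at 0.19 and 0.09. The count of 1 was thus the same under centring but of a different gene. The bzr1-1D mock mean, over 2 libraries, enters both this comparison and that of the genotypes on mock medium.

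**Figure D3:**
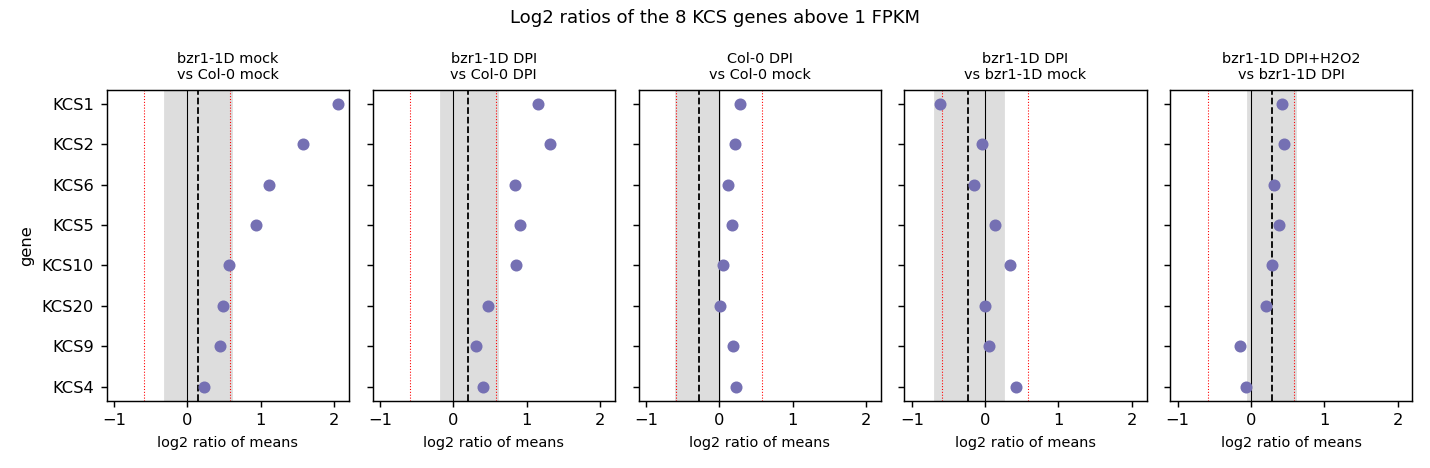
Log2 ratio of the authors' group means for the 8 KCS genes above 1 FPKM in 5 comparisons, 1 point per gene; the dashed line is the median of all genes with at least 1 FPKM, the grey band their middle quartiles, and the dotted red lines mark 1.5-fold. The points spread from 0.22 to 2.05 for the genotypes on mock medium and lie between 0.01 and 0.28 for DPI in Col-0.

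The design crosses genotype with DPI, so the DPI log2 ratio in bzr1-1D was set against that in Col-0. The difference was -0.89 for KCS1, from 0.28 in Col-0 to -0.61 in bzr1-1D, which is a 1.86-fold lower ratio. It was -0.28 for KCS6, -0.26 for KCS2, -0.13 for KCS9, -0.03 for KCS5 and -0.01 for KCS20, and 0.18 for KCS4 and 0.28 for KCS10. KCS1 was the only gene of the 8 with a difference past 1.5-fold, beside 10.7% of 17242 genes downwards and 17.7% upwards. The median difference of all genes was 0.09, and 5.46% of genes had a lower difference than KCS1. With group means alone this difference could not be tested.

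Adding H2O2 to DPI in bzr1-1D put none of the 8 genes past the fold, beside 27.2% of all genes upwards and 4.18% downwards. For genes averaging at least 10 FPKM the shares were 20.7% and 4.54%. KCS2 stood at a log2 ratio of 0.44, KCS1 at 0.43, KCS5 at 0.39, KCS6 at 0.31, KCS10 at 0.28 and KCS20 at 0.20. KCS4 and KCS9 were at -0.07 and -0.15. The median gene stood at 0.29, and relative to it KCS10 and KCS20 fell on the other side of 0, at -0.01 and -0.09. The median of genes averaging at least 10 FPKM was 0.21, which lies below the ratio of KCS10. KCS17 was 2.70-fold higher with H2O2, between means of 0.117 and 0.315 FPKM that lie below the minimum.

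Against bzr1-1D mock, the bzr1-1D seedlings on DPI plus H2O2 had KCS10 1.53-fold higher, the only one of the 8 genes past the fold, beside 16.5% of all genes upwards and 10.5% downwards. Relative to the median gene at 0.05, its log2 ratio of 0.62 became 0.57 and was under the threshold. Of genes averaging at least 10 FPKM, 13.5% were past the fold upwards and 9.61% downwards. KCS5 was 1.44-fold higher, KCS2 1.32-fold, KCS4 1.28-fold, KCS20 1.15-fold and KCS6 1.11-fold. KCS1 and KCS9 were at log2 ratios of -0.19 and -0.10. The comparisons within bzr1-1D share their groups, so their values stand side by side and are not independent.

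The 12 other KCS genes did not share one direction. On mock medium 7 of them passed 1 FPKM, and KCS3 and KCS12 were past the fold upwards in bzr1-1D, KCS8 and KCS13 downwards, and 3 were within it. These counts stand beside 26.0% of all genes upwards and 15.4% downwards. KCS3 was listed at 17.5 FPKM in Col-0 on mock medium and 21.2 with DPI, and in bzr1-1D at 55.7 on mock medium, 28.0 with DPI and 53.7 with DPI plus H2O2. KCS3 thus resembled KCS1, low in Col-0, highest in bzr1-1D mock and lower with DPI. KCS12 was listed at 4.89, 6.88, 13.5, 31.2 and 69.1 FPKM, an increase over the groups in that order that none of the 9 genes matched in size. KCS8 was lower in bzr1-1D, at 53.4, 48.4, 27.3, 28.1 and 34.4 FPKM, and KCS19 was listed at 59.3 in both Col-0 groups and at 41.7, 24.2 and 29.2 in the bzr1-1D groups. KCS11 ranged from 21.5 FPKM in Col-0 mock to 11.4 in bzr1-1D DPI, and KCS16 from 25.9 to 34.6 FPKM. KCS13 and KCS14, at most 2.54 and 1.81 FPKM, are 99.0% identical in coding sequence and share 829 stretches of 50 bases, so the split of reads between them is uncertain. KCS7, KCS15, KCS18 and KCS21 stayed under 1 FPKM. On DPI medium 1 of 8 was past the fold upwards, KCS12, and 4 downwards, KCS8, KCS11, KCS13 and KCS19. There, 26.1% of all genes were past it upwards and 8.94% downwards.

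**Figure D4:**
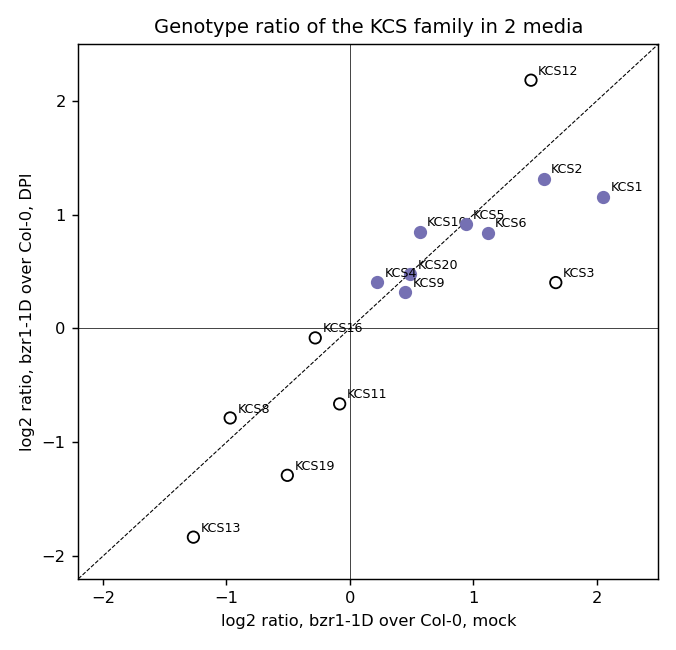
Log2 ratio of bzr1-1D over Col-0 on DPI medium against that on mock medium for the 15 KCS genes above 1 FPKM in both, with the 8 genes described here filled and the 7 others open; the dashed line marks equal ratios. All filled points lie above 0 on both axes, and KCS1 is the filled point farthest below the line, at 2.05 and 1.16.

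Of 6 elongase partners above 1 FPKM, 1 was past the fold upwards in bzr1-1D on mock medium and 1 downwards. Of all genes, 26.0% were past it upwards and 15.4% downwards. CER2, a cofactor of KCS6 in making the longest wax precursors, was listed at 69.6 FPKM in Col-0 on mock medium and 75.5 with DPI, and in bzr1-1D at 135 on mock medium, 139 with DPI and 170 with DPI plus H2O2. It was the one past the fold upwards, at a log2 ratio of 0.95, beside 1.12 for KCS6. CER26, a relative of CER2, was the one past it downwards, from 7.14 FPKM in Col-0 mock to 2.72 in bzr1-1D mock. The ketoacyl reductase KCR1, the dehydratase PAS2 and the enoyl reductase CER10 were at 0.37, 0.32 and 0.40, and ACC1, the carboxylase that supplies malonyl-CoA, at 0.08. KCR2, a homologue of KCR1, stayed between 0.453 and 1.35 FPKM. With DPI in bzr1-1D, 3 of 6 partners were past the fold upwards, PAS2 at 0.67, CER26 at 0.64 and CER10 at 0.60, and 0 downwards. The shares of all genes were 15.0% upwards and 29.6% downwards.

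Among the wax genes 5 of 8 were past the fold upwards in bzr1-1D on mock medium and 1 downwards, and these counts and those that follow stand beside 26.0% of all genes upwards and 15.4% downwards. CER1 and CER3, which form alkanes together, were at log2 ratios of 1.61 and 0.71, the exporter ABCG11 at 1.01 and the lipid transfer protein LTPG1 at 1.60. Of 10 suberin genes 3 were past it upwards, near the share of all genes, and 0 downwards, among them the feruloyl transferase ASFT at 1.04 and the acyl reductase FAR1 at 0.59. Of 8 cutin genes 4 were past it upwards and 1 downwards, with the hydroxylases CYP86A4 at 2.67 and CYP86A2 at 2.40, the hydrolase BDG at 1.22 and the acyltransferase GPAT8 at 1.20. Of 6 sphingolipid genes 1 was past it upwards, and the serine palmitoyltransferase subunits LCB2a and LCB2b were at -0.15 and 0.36. Of 7 regulators 3 were past it upwards and 1 downwards, with MYB96 at 1.76 and MYB30 at 1.07, both activators of KCS and wax genes, and the repressor DEWAX at 0.05. Genes outside the naming rule, named after their values were seen, make up the rest of these counts: CER4, FAR5, LOH3 and MYB94 upwards, and LACS1, DCR and MYB106 downwards. The medians of the lists were 0.86 for wax, 0.41 for suberin, 0.76 for cutin, 0.29 for sphingolipids and 0.43 for regulators, beside 0.14 for all genes.

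With DPI in bzr1-1D, 15.0% of all genes were past the fold upwards and 29.6% downwards, and differences between the lists were not tested. Of 10 suberin genes 6 were past the fold upwards and 1 downwards, with the hydroxylase CYP86A1 at a log2 ratio of 1.21, the exporter ABCG6 at 1.16 and FAR1 at -1.09. Their summed level nevertheless went down, from 239 FPKM on mock medium to 176 with DPI. FAR1, the highest of the 10 in both groups, went from 181 to 85.0 FPKM. Of 7 wax genes 0 were past it upwards and 1 downwards, CER1 at -0.84. Cutin genes went both ways, 2 upwards and 2 downwards of 8, with GPAT4 at 0.64, CYP86A4 at -1.56 and GPAT8 at -0.77. Of 6 sphingolipid genes LCB2a at -0.63 and LCB2b at -0.72 were past it downwards, near the share of all genes, and DEWAX was at -1.40. CER1 and KCS1, both past the fold downwards with DPI in bzr1-1D, were at 0.31 and 0.28 with DPI in Col-0. Over the root markers, 4 of 5 were past the fold downwards with DPI in bzr1-1D, and their sum went from 672 to 391 FPKM. The part of this in the suberin and KCS values was not tested.

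**Figure D5:**
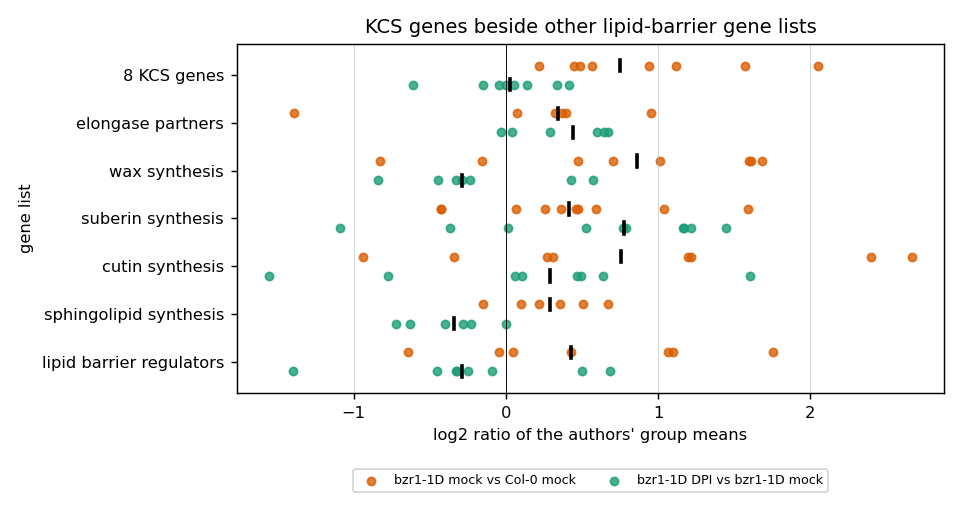
Log2 ratio of the authors' group means for the 8 KCS genes and 6 lists of related genes above 1 FPKM, 1 point per gene, for bzr1-1D against Col-0 on mock medium in orange and for DPI against mock in bzr1-1D in green; black bars are medians. The median of the KCS genes was 0.75 in the first and 0.03 in the second comparison, and that of the suberin genes 0.41 and 0.78.

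Likeness of pattern was measured as the root mean square difference of log2 group means, each centred on its own mean over the 5 groups. Among the 8 genes KCS5 and KCS6 were nearest to each other, at 0.125, and KCS1 and KCS2 were paired at 0.213 and KCS4 and KCS9 at 0.154. KCS10 was nearest to KCS5, at 0.130, and KCS20 to KCS9, at 0.169. KCS5 and KCS6 are also the pair with the second highest identity in coding sequence, whereas KCS2 and KCS20, the most similar pair by sequence, were 0.517 apart. Of 9044 genes averaging 10 FPKM or more over the groups, the 5 nearest to KCS6 were NAC084 at 0.052, AT3G11780 at 0.053, CER2 at 0.070, AT4G32140 at 0.071 and the plasma membrane proton pump HA2 at 0.075. Among those 9044 genes KCS5 ranked 30 by likeness to KCS6, KCS10 206, KCS20 539, KCS2 652, KCS1 1221, KCS9 1896 and KCS4 2004. The measure rests on 5 group means and is a description.

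BZR1 is known to bind the E-box variant CACGTG and the brassinosteroid response element, written CGTGTG or CGTGCG. These letters were searched on both strands, and a CACGTG followed by TG also holds CGTGTG. Within 250 bases upstream of the annotated gene start, 1 of the 9 genes held any of them, KCS1, beside 11.6% of 27443 promoters. Within 1000 bases KCS1, KCS20 and KCS5 held one, beside 30.6% of promoters. The 250 bases upstream of KCS1, the gene with the highest genotype ratio, are shown with the match in capitals, at chr1:59216-59465 on the minus strand of TAIR10.1.
KCS1: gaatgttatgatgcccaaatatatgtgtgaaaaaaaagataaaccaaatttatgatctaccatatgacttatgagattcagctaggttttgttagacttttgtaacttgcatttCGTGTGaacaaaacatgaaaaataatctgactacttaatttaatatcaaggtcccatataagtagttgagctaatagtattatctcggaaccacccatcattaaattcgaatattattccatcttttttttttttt
The matches of KCS20 and KCS5 lie 418 and 880 bases upstream, at chr5:17585093-17585122 on the plus strand and chr1:8941476-8941505 on the minus strand, and are shown in windows of 30 bases, with CACACG being CGTGTG on the other strand.
KCS20: tttacacaagttCACACGgccacgtaaaat
KCS5: tgtgacagaattCACGTGaacaaatgctcg
KCS20 was within 1.5-fold in each of the 6 comparisons, whereas KCS1 and KCS5 were past the fold for genotype on both media. Of the genes without these letters within 1000 bases, KCS6 and KCS2 were past it on both media and KCS10 on DPI medium only. KCS4 and KCS9 were past it on neither, and KCS17 was below the minimum level. A link between these letters and the ratios was not tested. The general E-box CANNTG, not marked in these windows, was held by 7 of the 9 genes within 250 bases, beside 55.3% of promoters. Within 1000 bases all 9 held it, beside 96.2% of promoters. A match is a description of the letters in the window.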

How the data were processed

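RNA-Seq was made from 14 samples in 5 groups, assigned from their labels. The authors sequenced on the BGISEQ-500 platform, mapped reads with HISAT and Bowtie2 to TAIR10 (per the submitters' processing notes, versions not given in the sources used here) and deposited group means, taken as FPKM from their size and scaling by gene length. Zeros had been set to 0.01 FPKM before deposit. The deposited log2 ratios and NOISeq probabilities are results of the authors' own comparisons and were not used.

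Ratios of the authors' means were computed without a pseudocount where the pair of group means averaged 1 FPKM or more, and a gene was past the fold at 1.5-fold or more, the fold the study used. As no values per sample were present, the planned case for group means was followed and no test was made. The 6 complete tables were used, and 1 table that ends within a row was not. The step that counts genes past the fold was tested on simulated data made from the group means, which checks its arithmetic and not the spread between samples. That run was centred on the median gene and set no minimum, whereas the main counts were not centred and kept the minimum of 1 FPKM. The genes and lists were chosen with earlier results of these data known. Named were all 9 genes, the other KCS genes with at least 1 FPKM in a group, all elongase partners, and in other lists genes past 1.5-fold and averaging 10 FPKM or more for genotype on mock medium or DPI in bzr1-1D. KCS genes under 1 FPKM, and genes that complete a count, were named after their values were seen.

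Sequences were read from TAIR10.1, in which all 24144 genes with coordinates in both lay within the annotated gene on the same strand. Python 3.11.15, pandas 2.3.3, numpy 2.4.6, Biopython 1.88 and matplotlib 3.10.9 were used. Alternatives were a 2-fold threshold, no minimum, a minimum of 5 FPKM, a pseudocount of 1 FPKM and centring on the median gene.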

Additional observations from a re-analysis of the deposited data

How the results depend on the processing

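At a 2-fold threshold the count of KCS genes past the fold for bzr1-1D against Col-0 became 3 on mock medium and 2 on DPI medium. The count became 0 both for DPI against mock in bzr1-1D and for DPI plus H2O2 against bzr1-1D mock. Without a minimum level it became 5 for bzr1-1D against Col-0 on mock medium, 2 for DPI against mock in bzr1-1D and 1 for DPI plus H2O2 against DPI. Each of these changes came through KCS17, whose means are at most 0.315 FPKM. Centred on the median gene it became 0 for DPI plus H2O2 against bzr1-1D mock, where KCS10 went to 0.57. For DPI against mock in bzr1-1D, centring put KCS1 at -0.37, KCS4 at 0.66, KCS2 at 0.19 and KCS6 at 0.09, and for DPI plus H2O2 against DPI it put KCS10 at -0.01 and KCS20 at -0.09. A minimum of 5 FPKM and a pseudocount of 1 FPKM left each of the counts within 1.5 times its value.

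No paired analysis was possible because the columns hold group means and carry no replicate numbers. For the same reason leaving out a replicate in turn was not run, and the precision set by depth is unknown.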
